A study of Homo sapiens with 6 samples.

Results

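The 10 genes described here encode feedback inhibitors of mitogen-activated protein kinase (MAPK) signalling. They are 5 dual-specificity phosphatases (DUSP1, DUSP4, DUSP5, DUSP6 and DUSP10), 3 Sprouty proteins (SPRY1, SPRY2 and SPRY4) and 2 Sprouty-related proteins (SPRED1 and SPRED2). They were taken by name from a table of 37923 genes, where each symbol matched 1 row, and all 10 passed the expression filter of the test. The ENZ group comprised 3 libraries, described by the submitters as colorectal cancer cells treated with A3, a compound that degrades the histone demethylase LSD1, and harvested 48 h later. The Control group comprised 3 libraries of the same cells, for which no vehicle is named in the sources used here. Every sample is labelled as the cell line RKO, a poorly differentiated human colon carcinoma line, so all libraries stand for 1 line grown in culture. The meaning of the name ENZ was not given in the sources used here, and the name does not match that of the compound A3. No value in the tables checks which compound the cells received, so the treatment is given as the submitters described it and each fold change is of ENZ over Control.

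Growth factor receptors activate RAS, RAF, MEK and the ERK kinases, while stress signals activate the JNK and p38 kinases. Active ERK induces transcription of several of its own inhibitors, which is why their transcripts are often read as a measure of pathway output. DUSP proteins remove the activating phosphates from MAPKs, Sprouty proteins act between the receptor and RAF, and SPRED proteins bring the RAS inhibitor neurofibromin to the membrane.

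The libraries held 26756840 to 30025543 counts in ENZ and 26691289 to 28207612 in Control, and single members had 55 to 2436 counts in a library. KDM1A, which encodes LSD1, had 105, 108 and 111 CPM (counts per 1000000 counts of the library) in ENZ, against 113, 110 and 115 CPM in Control, with no call (log2 fold change −0.02). A degrader acts on protein, so this transcript does not check the exposure. The label RKO went against the markers examined. All 12 prostate luminal markers were detected, with summed levels of 3259 to 3290 CPM in ENZ and 3037 to 3105 CPM in Control. By the edgeR test described below (adjusted p under 0.05), 5 of these 12 markers rose in ENZ and 5 fell. That was 83.3% of them, beside 39.8% of all tested genes. Their median absolute log2 fold change was 0.47, beside 0.20 over all tested genes. The largest falls were those of SLC45A3 (−1.69), STEAP1 (−1.22) and STEAP2 (−1.03), and the largest rise was that of TMPRSS2 (0.75). Of 9 intestinal markers, 6 stayed under 0.5 CPM in every library, and KRT20 and CDX1 did not exceed 1 count in any. The summed intestinal markers, led by EPCAM and VIL1, reached 148 to 154 CPM in ENZ and 134 to 138 CPM in Control. The cells are therefore called by their group names below, and the part of cell identity in the results was not tested.

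The sequence around the transcription start was compared first, because transcripts of the members moved in both directions. Promoter windows of 250 bases before to 50 bases after the start were available from RefSeq (GRCh38.p14) for 8 of the 10 genes, all but DUSP4 and DUSP5, in 13 windows. The windows of DUSP1 (chr5:172771146-172771445), DUSP6 (chr12:89352452-89352751) and SPRY4 (chr5:142324198-142324497), whose transcripts were higher in ENZ, and of SPRY2 (chr13:80341077-80341376), whose transcript was lower, are printed 5′ to 3′, all from the minus strand. Where a gene had several windows, the one nearest to the canonical transcript start is shown, and the SPRY4 window is set 774 bases from it. Capitals mark matches on either strand to 7 sequences bound by transcription factors, which are spelled out after the windows: a cyclic AMP response element (CRE), its half-site, an ETS, an EGR and an AP-1 site, a TATA box and a CArG box.
DUSP1: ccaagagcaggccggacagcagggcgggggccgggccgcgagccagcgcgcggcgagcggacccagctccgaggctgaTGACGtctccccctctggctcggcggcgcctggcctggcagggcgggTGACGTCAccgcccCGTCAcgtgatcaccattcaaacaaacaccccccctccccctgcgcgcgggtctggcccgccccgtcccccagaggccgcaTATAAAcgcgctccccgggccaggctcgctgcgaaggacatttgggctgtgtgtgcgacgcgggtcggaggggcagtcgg
DUSP6: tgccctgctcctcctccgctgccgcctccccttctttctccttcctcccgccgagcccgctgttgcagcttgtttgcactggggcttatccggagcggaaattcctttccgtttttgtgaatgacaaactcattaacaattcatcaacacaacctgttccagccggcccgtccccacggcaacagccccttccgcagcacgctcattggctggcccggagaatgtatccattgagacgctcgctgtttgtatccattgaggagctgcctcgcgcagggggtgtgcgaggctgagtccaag
SPRY4: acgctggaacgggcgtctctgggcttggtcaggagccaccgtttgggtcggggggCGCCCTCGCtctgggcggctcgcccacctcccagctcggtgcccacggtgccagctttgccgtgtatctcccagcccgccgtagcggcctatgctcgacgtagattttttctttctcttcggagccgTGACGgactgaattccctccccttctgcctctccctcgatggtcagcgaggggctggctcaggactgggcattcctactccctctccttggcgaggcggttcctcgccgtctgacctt
SPRY2: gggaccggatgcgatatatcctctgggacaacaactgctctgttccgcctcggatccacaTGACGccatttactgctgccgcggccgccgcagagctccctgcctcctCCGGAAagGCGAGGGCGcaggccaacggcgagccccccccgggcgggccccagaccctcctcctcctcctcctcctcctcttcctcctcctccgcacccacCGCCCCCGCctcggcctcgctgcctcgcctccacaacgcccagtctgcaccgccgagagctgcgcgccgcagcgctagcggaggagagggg

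The full CRE was searched as TGACGTCA, and DUSP1 held the only one of the 13 windows, at positions -125 to -118 from the start. It also held 4 half-sites (TGACG), of which 2 lie within the full CRE. A TATA box, searched as TATAAA, stood at -30 to -25. A full CRE was present in 1.85% of all 35116 windows searched and a TATA box in 11.5%. The SPRY2 window held 1 ETS site, defined as CCGGAA and found in 17.2% of all windows. It also held 2 EGR sites, defined as GCGNGGGCG and found in 9.43%. The SPRY4 window held 1 EGR site and 1 CRE half-site, and the half-site was present in 24.6% of all windows. The SPRY2 window also held 1 half-site. The AP-1 site, TGANTCA, occurred in 7.71% of all windows and in none of those printed. The DUSP6 window had no match to any of these sequences. The same held for the SPRED1 window and for the windows of DUSP10 and SPRY1 nearest to their canonical starts, which are not printed. The other SPRY1 window, 1591 bases from the canonical start, held 1 ETS site and 1 EGR site. The other DUSP10 window held 1 CRE half-site. Of the SPRED2 windows, the one at the canonical start held 1 CRE half-site. The other, 65821 bases away, held 2 AP-1 sites and 1 TATA box. None of the 13 windows held a CArG box, searched as CCWWWWWWGG (W being A or T) and present in 1.29% of all windows. These matches describe letters in a window and were not measured as binding.

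In ENZ, transcripts of 4 feedback inhibitors rose and 2 fell, while 4 did not pass the test. In bulk RNA, fewer cells of a type and less RNA per cell cannot be told apart. DUSP6, DUSP4, SPRY4 and DUSP1 rose by 16.6% to 74.7%, and SPRY2 and DUSP10 fell by 27.8% and 17.2%. A call required an adjusted p under 0.05 in edgeR (quasi-likelihood F test, Benjamini-Hochberg over 18581 genes). Under it 39.8% of all tested genes were called, 20.5% higher and 19.3% lower, so 6 calls among 10 members must be read against a transcriptome in which many genes differed. No member passed an absolute log2 fold change of 1, which 2.98% of tested genes did. The median log2 fold change of the members was 0.15, beside −0.01 over all tested genes, and their median absolute change was 0.32, beside 0.20. CPM values of the groups did not overlap for 5 members that were higher and 2 that were lower in ENZ, against 21.7% and 27.6% of tested genes, 49.2% in all.

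**Figure D1:**
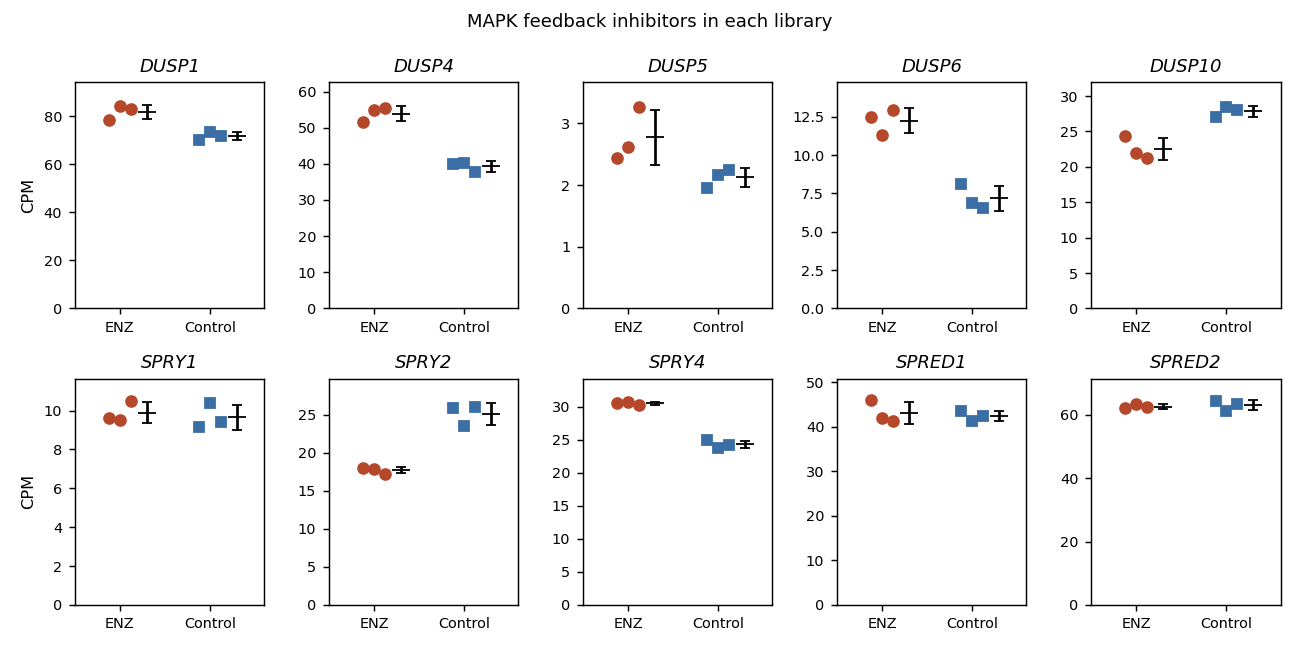
CPM (counts per 1000000 library counts, vertical axes, each from 0) of the 10 members in the 3 ENZ libraries (circles) and 3 Control libraries (squares), with mean and SD beside them. DUSP6 lies at 11.3 to 12.9 CPM in ENZ and 6.52 to 8.12 in Control, and SPRY2 lies lower in every ENZ library than in any Control library.

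DUSP6, on chromosome 12 from 89347235 to 89352501 (GRCh38), encodes a cytoplasmic phosphatase that acts on ERK in preference to JNK and p38. It had 12.5, 11.3 and 12.9 CPM in ENZ, against 8.12, 6.88 and 6.52 CPM in Control. Every ENZ library was well above every Control library. The log2 fold change was 0.80 ± 0.10 (SE, 95% confidence interval 0.60 to 1.01; adjusted p = 1.10e-06), a 1.75-fold rise. Of the 3814 genes called higher, 247 had a larger fold change. An antisense long noncoding RNA gene, ENSG00000274021, overlaps 1105 of the 3859 exonic bases of DUSP6, and the library kit keeps no strand. It had 6, 5 and 14 counts in ENZ and 7, 1 and 3 counts in Control, against 303 to 380 and 174 to 229 counts for DUSP6, and reads in the shared bases cannot be told apart.

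DUSP4 (chromosome 8, 29333064 to 29350684) encodes a nuclear phosphatase for ERK and JNK that is itself induced by ERK. Its level was 51.5, 54.8 and 55.3 CPM in ENZ, against 40.0, 40.2 and 37.7 CPM in Control. The groups were separated by a gap wider than the spread within either. It rose 1.40-fold, by 0.49 ± 0.05 on the log2 scale (adjusted p = 2.59e-07). DUSP1 (chromosome 5, 172768096 to 172771195) encodes a nuclear phosphatase of p38, JNK and ERK whose gene responds to growth factors, stress and glucocorticoids. DUSP1 had 78.4, 84.2 and 82.9 CPM in ENZ, against 70.1, 73.6 and 71.8 CPM in Control. The rise was small, 0.22 ± 0.05 on the log2 scale (adjusted p = 6.55e-04), and the lowest ENZ library stood above the highest Control library. Of genes called higher, 2426 had a larger fold change than DUSP1.

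DUSP5 (chromosome 10, 110497907 to 110511533), a nuclear phosphatase specific for ERK, was the scarcest member. It had 73, 70 and 96 counts in ENZ, against 55, 59 and 60 counts in Control, or 2.43, 2.62 and 3.27 CPM against 1.95, 2.17 and 2.25 CPM. The groups did not overlap, but the gene did not pass the threshold (log2 fold change 0.42 with an interval of 0.07 to 0.77 and an adjusted p of 0.0537). Leaving out ENZ replicate 1 gave a call, with a log2 fold change of 0.52 and an adjusted p of 0.0228 in edgeR's test. Leaving out ENZ replicate 3, the library with 96 counts, gave 0.28 and an adjusted p of 0.268 in the same test. DUSP10 (chromosome 1, 221701424 to 221742089) differs from the others in substrate, acting on p38 and JNK rather than ERK. DUSP10 had 24.3, 22.0 and 21.2 CPM in ENZ, against 27.0, 28.5 and 28.1 CPM in Control. It fell by 0.27 ± 0.07 on the log2 scale (adjusted p = 0.00205), and all ENZ libraries were below all Control libraries.

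Among the Sprouty genes 1 rose, 1 fell and 1 did not pass the test. SPRY4 (chromosome 5, 142310427 to 142326455) encodes an inhibitor of receptor signalling to RAS and RAF. SPRY4 had 30.5, 30.8 and 30.3 CPM in ENZ, against 25.0, 23.8 and 24.2 CPM in Control. The ENZ libraries lay within 0.5 CPM of each other and above all Control libraries. It rose by 0.36 ± 0.06 on the log2 scale, 1.29-fold (adjusted p = 4.11e-05). SPRY2 (chromosome 13, 80335976 to 80341126) encodes the Sprouty protein best known for binding the adaptor GRB2 and the ubiquitin ligase CBL. SPRY2 had 18.0, 17.9 and 17.2 CPM in ENZ, against 25.9, 23.5 and 26.0 CPM in Control. The groups were far apart, and it fell by 0.47 ± 0.07 on the log2 scale (interval −0.61 to −0.33; adjusted p = 9.40e-06). SPRY1 (chromosome 4, 123396795 to 123403760), a further Sprouty inhibitor of receptor signalling, had 9.63, 9.53 and 10.5 CPM in ENZ, against 9.15, 10.4 and 9.44 CPM in Control. Its groups overlapped, and the interval of its log2 fold change was −0.12 to 0.26 (adjusted p = 0.576).

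Neither SPRED gene passed the test. SPRED1 (chromosome 15, 38252836 to 38357249), which binds neurofibromin and is mutated in Legius syndrome, had 45.9, 41.9 and 41.3 CPM in ENZ, against 43.5, 41.2 and 42.3 CPM in Control. SPRED2 (chromosome 2, 65310851 to 65432637), its close relative, had 62.0, 63.3 and 62.4 CPM in ENZ, against 64.5, 61.2 and 63.5 CPM in Control. In both genes the groups overlapped. The intervals of the log2 fold changes were −0.05 to 0.17 for SPRED1 (adjusted p = 0.418) and −0.07 to 0.12 for SPRED2 (adjusted p = 0.726). These intervals do not show equality, and they hold for the scaling used.

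Base composition moved with the fold changes of the whole transcriptome, with a Spearman correlation of 0.34 between log2 fold change and GC content across 18538 genes, which are not independent replicates. SPRED1, at 36.3% GC, was the member lowest in GC. With library offsets fitted to GC content and transcript length it had a log2 fold change of 0.28 ± 0.05 and was called (adjusted p = 1.10e-05 in edgeR's test). The 6 called members had transcripts of 45.3% to 55.2% GC and kept their direction and call under these offsets, with DUSP6 at 0.84, DUSP4 at 0.44, SPRY4 at 0.33, DUSP1 at 0.19, DUSP10 at −0.19 and SPRY2 at −0.45.

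**Figure D2:**
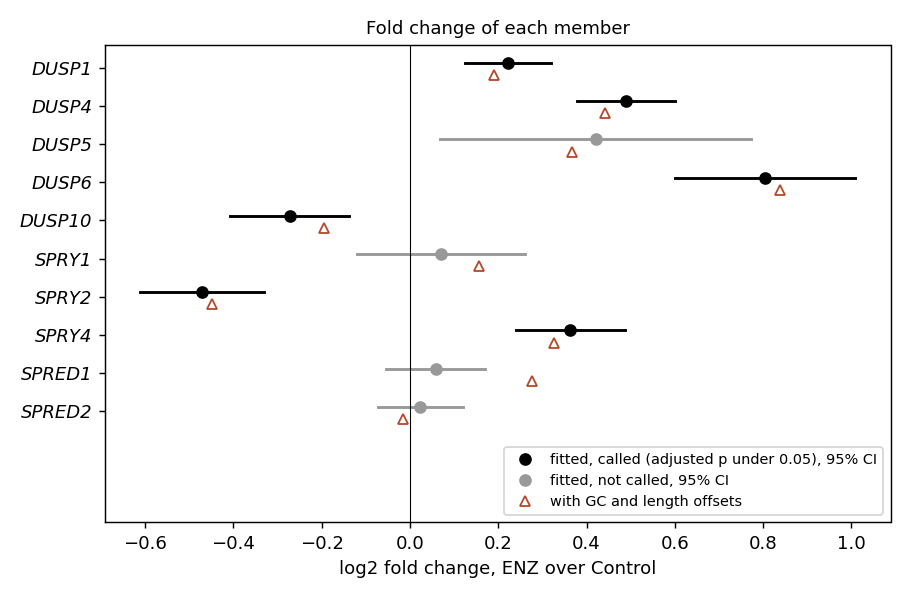
Log2 fold change of ENZ over Control for each member (circles with 95% confidence intervals, black where called) and the same value with GC and length offsets (triangles, intervals not drawn). The 6 called members stay on their side of 0 under the offsets, and SPRED1 shows the widest shift, to 0.28.

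Levels of different genes were compared as FPKM, the authors' counts scaled to gene length and library total. DUSP1 was the most abundant member, at 40.6 ± 1.50 FPKM in ENZ and 35.7 ± 0.89 FPKM in Control (SD, n = 3 each). It held 45.2% of the summed FPKM of the 10 genes in ENZ and 42.2% in Control. SPRED2 followed at 11.4 and 11.5 FPKM. DUSP5 was last, at 1.09 FPKM in ENZ and 0.84 FPKM in Control. Between these ends the order differed between groups. DUSP4 stood above SPRY2 in ENZ (7.40 and 5.51 FPKM) and below it in Control (5.40 and 7.82 FPKM), and DUSP6 stood above SPRY1 in ENZ (3.17 and 2.50 FPKM) and below it in Control (1.86 and 2.44 FPKM). In ENZ the ranges of the neighbours DUSP10 and DUSP4 overlapped, as did those of SPRED1 and SPRY2. In Control only SPRED1 and DUSP4 overlapped among neighbours.

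**Figure D3:**
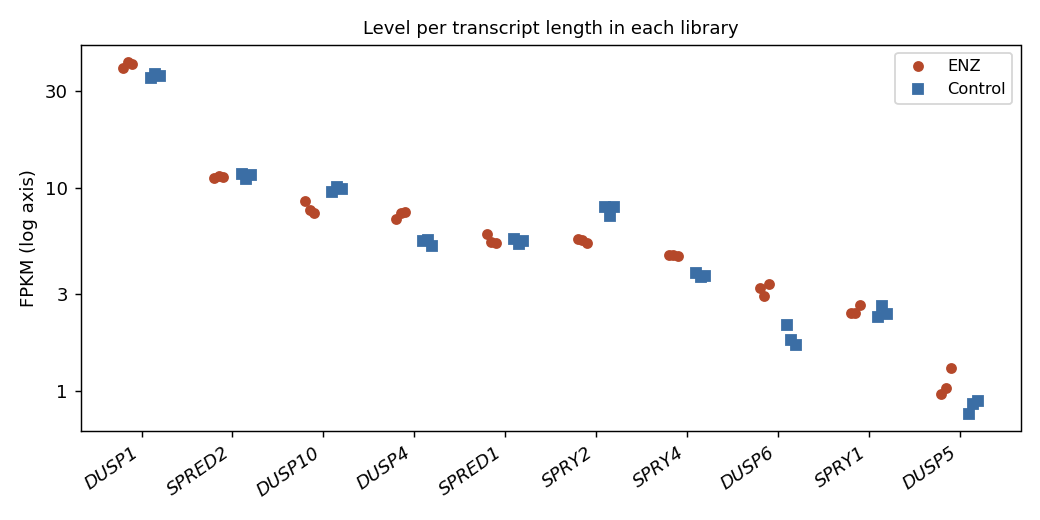
FPKM on a log axis for each member in the 3 ENZ libraries (circles) and 3 Control libraries (squares), ordered by the mean in ENZ. DUSP1 lies at 34.8 to 41.8 FPKM in every library, and DUSP5 at the low end lies near 1.

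Because 2 genes of 1 library share its scaling factor, ratios between members do not depend on that factor. Offsets for GC content and length, which differ between genes, were not applied to these ratios. The pairs SPRY4 with SPRY2 and DUSP6 with DUSP10 were chosen after their fold changes were seen, so the ratios are given without a test. The ratio of SPRY4 to SPRY2 in FPKM was 0.83, 0.84 and 0.86 in ENZ, against 0.47, 0.50 and 0.46 in Control. SPRY2 thus exceeded SPRY4 in all 6 libraries, by a smaller margin in ENZ. The ratio of the ERK phosphatase DUSP6 to the p38 and JNK phosphatase DUSP10 was 0.38, 0.38 and 0.45 in ENZ, against 0.22, 0.18 and 0.17 in Control. Sums, unlike ratios, depend on the library scaling. The summed level of the 5 DUSP genes was 58.8 to 61.1 FPKM in ENZ and 52.7 to 54.8 FPKM in Control. Of this DUSP1 alone had means of 40.6 and 35.7 FPKM, and DUSP10 was lower in ENZ. The 3 SPRY genes summed to 12.6 to 12.7 FPKM in ENZ and 13.6 to 14.2 FPKM in Control. Within that sum SPRY2 was lower and SPRY4 higher in ENZ. For the 2 SPRED genes the sums overlapped, at 16.7 to 17.2 FPKM in ENZ and 16.4 to 17.3 FPKM in Control.

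**Figure D4:**
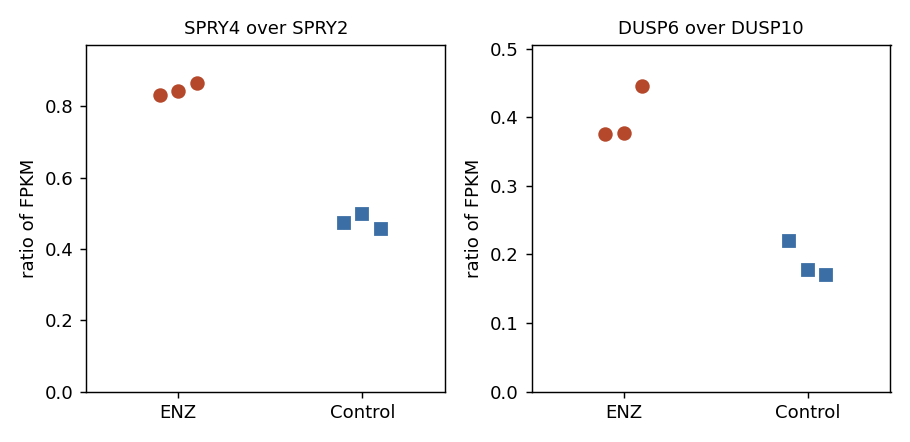
Ratio of FPKM values within each library, from 0, for SPRY4 over SPRY2 (left) and DUSP6 over DUSP10 (right), in 3 ENZ libraries (circles) and 3 Control libraries (squares). Both ratios are higher in every ENZ library than in any Control library.

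The members were also compared in the AU-rich pentamer ATTTA of their 3′ untranslated regions, a sequence linked to rapid mRNA decay. DUSP1 had 4 copies in 666 bases, 6.01 per kilobase, against a median of 1.55 and an upper quartile of 3.12 per kilobase over 17699 protein-coding genes. SPRED1 had 24 copies in 5585 bases (4.30 per kilobase) and SPRY1 had 4 in 1204 bases (3.32 per kilobase), so 3 members lay above the upper quartile. Only 1 of these, DUSP1, was called. DUSP6, with the largest rise, had 1 copy in 2019 bases, and DUSP5 had 0 in 1107 bases. SPRY2 and DUSP10, which fell, had 2.56 and 3.04 copies per kilobase, and SPRY4 and DUSP4, which rose, had 2.12 and 1.51. Among called members, DUSP6, DUSP4 and SPRY4, which rose, were thus below SPRY2 and DUSP10 in density, and DUSP1, which also rose, was above them. Whether the density bears on direction was not tested.

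Among relatives outside the 10 members 1 gene passed the test. That was 20% of the other phosphatases listed and 0% of SPRY3 and SPRED3, beside 39.8% of all genes. Of the other 5 active MAPK phosphatases in the list only DUSP2, a nuclear ERK phosphatase, was called, with 26.6, 28.3 and 28.9 CPM in ENZ against 22.7, 22.7 and 22.2 CPM in Control (log2 fold change 0.34 ± 0.06; adjusted p = 1.59e-04). Log2 fold changes were 0.10 for DUSP7, 0.04 for DUSP8, −0.03 for DUSP9 and −0.10 for DUSP16, none of them called, although DUSP16 was called with library totals as the scaling (−0.13; adjusted p = 0.0306 in edgeR) and in both filtered fits of log2 FPKM. With GC and length offsets DUSP8, at 66.3% GC, turned to a called fall of 0.16. SPRY3 had 2.14 ± 0.12 CPM in ENZ and 2.85 ± 0.50 CPM in Control (log2 fold change −0.38; adjusted p = 0.0821). Without Control replicate 2 its log2 fold change was −0.22 (adjusted p = 0.367 in edgeR). SPRED3 was near 0 (log2 fold change 0.02; adjusted p = 0.930).

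Of 11 other negative regulators of receptor and RAS signalling tested, 2 rose and 4 fell (median log2 fold change −0.02). The share called was 54.55%, beside 39.8% of all genes, of which 20.5% were higher and 19.3% lower. Only 1 rise was called without ENZ replicate 2 or without any 1 of the 3 Control replicates, CBL being lost each time (0.12 with all libraries), and likewise on library totals and in the 3 fits of log2 FPKM. The falls numbered 2 on unfiltered log2(FPKM + 1) values and 3 or 4 in the other alternatives. IL17RD, an antagonist of fibroblast growth factor signalling, had 20.1, 19.7 and 20.7 CPM in ENZ, against 13.0, 13.6 and 15.0 CPM in Control. It rose by 0.57 ± 0.08 (adjusted p = 2.81e-06). ERRFI1, which inhibits the epidermal growth factor receptor, had 83.2, 81.9 and 84.0 CPM in ENZ, against 116, 120 and 117 CPM in Control. It fell by 0.47 ± 0.04 (adjusted p = 1.02e-08), a fall close in size to that of SPRY2.

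Of 18 genes of the cascade from receptor to ERK, 8 rose and 2 fell, with a median log2 fold change of 0.11. The share called was 55.6%, beside 39.8% of all genes. Without ENZ replicate 1 the falls numbered 5, and with GC and length offsets 1. In the 3 fits of log2 FPKM 3 to 5 genes rose and 1 fell. The ERK gene MAPK3 rose by 0.43 ± 0.06 and the receptor gene EGFR by 0.20 ± 0.05 on the log2 scale. The EGFR call ended in the 3 fits of log2 FPKM (adjusted p of 0.0622 to 0.131 in limma). KSR1, a scaffold for RAF and MEK, had the largest fold change of the list at a low level, 1.25 ± 0.15 CPM in ENZ and 0.73 ± 0.08 CPM in Control (log2 fold change 0.81; adjusted p = 0.0146). Its call ended in DESeq2 (0.82, adjusted p = 0.0872), without ENZ replicate 3 (0.70, adjusted p = 0.0697 in edgeR) and without Control replicate 3 (0.76, adjusted p = 0.0503 in edgeR). It also ended on unfiltered log2(FPKM + 1) values (0.06), where the pseudocount exceeds the FPKM of KSR1 and shrinks the change. BRAF fell by 0.20 ± 0.05 (adjusted p = 0.00424), a call that ended with GC and length offsets (−0.06) and in the 3 fits of log2 FPKM (adjusted p of at least 0.0503 in limma).

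Of 12 tested genes of the JNK and p38 branch, 4 rose and 0 fell (median 0.08), a share of 33.3% called beside 39.8% of all genes, with the p38 gene MAPK11 highest in fold change at 0.26 ± 0.04. The rises numbered 2 on unfiltered log2(FPKM + 1) values. With GC and length offsets they numbered 5, but of partly different genes. MAPK12 (0.03) and MAPKAPK2 (0.08) were then no longer called, while MAP2K4 (0.19), MAPK8 (0.18) and MAPK9 (0.10) were. MAPK11 stood at 0.13 with these offsets and kept its call. No gene of this list fell in DESeq2 or limma-voom either, and 0 had an unadjusted p under 0.05 with a negative fold change in edgeR, beside 4379 of all 18581 genes.

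Among 14 transcripts commonly read as ERK output, 5 rose and 1 fell (median 0.17). Calls made up 42.9% of the list, beside 39.8% of all genes. The immediate early factor EGR1 had 16.0, 15.7 and 16.0 CPM in ENZ, against 8.79, 9.53 and 9.55 CPM in Control, and rose by 0.81 ± 0.08 (adjusted p = 6.00e-08), a change about the size of that of DUSP6. EGR3, a related factor, had 32, 21 and 27 counts in ENZ, against 11, 7 and 8 counts in Control (log2 fold change 1.57 ± 0.33). The ephrin receptor gene EPHA4 had 16, 15 and 14 counts in ENZ, against 33, 34 and 25 counts in Control (log2 fold change −1.06 ± 0.28). Both calls ended on unfiltered log2(FPKM + 1) values, at 0.15 for EGR3 and −0.10 for EPHA4. There the pseudocount exceeds the FPKM of both genes and shrinks the change. The filtered fits of log2 FPKM left both genes out, as their mean lay under 1 FPKM. In the 3 fits of log2 FPKM 3 genes of this list rose and 0 fell, but for the stated reasons these fits cannot test the calls of EGR3 and EPHA4. Over these 6 lists of other pathway genes 20 of 62 tested genes rose and 7 fell, so that 43.5% were called, beside 39.8% of all genes.

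**Figure D5:**
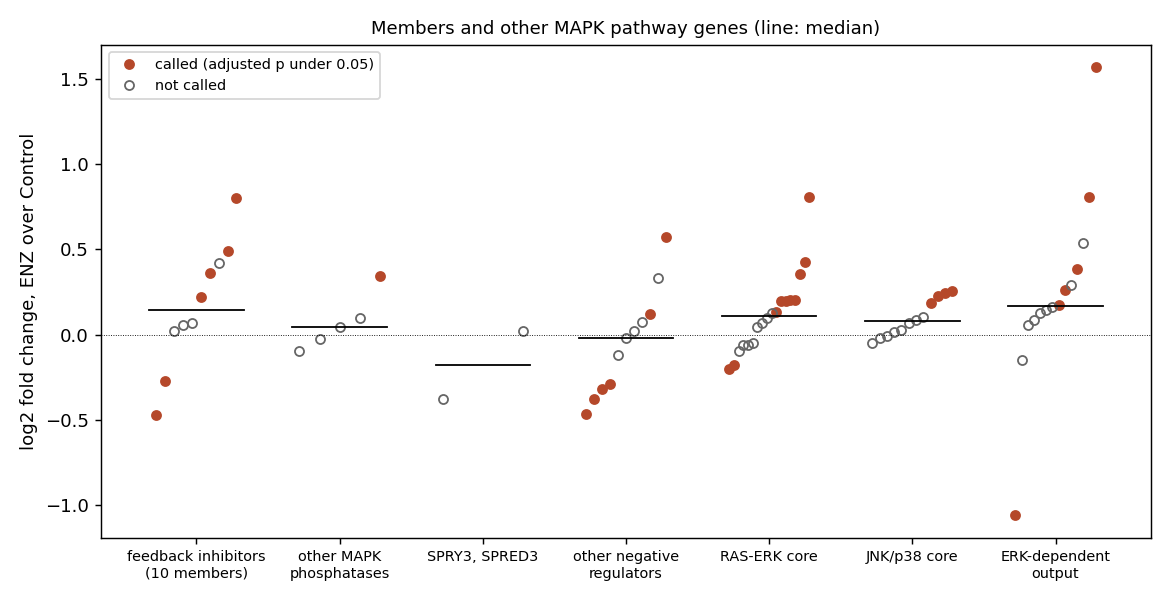
Log2 fold change of ENZ over Control for the 10 members and for 6 lists of other MAPK pathway genes, each point 1 gene, filled where called, with the list's median as a line. The members span −0.47 to 0.80 and lie on both sides of 0, as do the genes of each of the 6 lists.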

How the data were processed

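RNA of 6 samples labelled RKO was sequenced. Per the labels' protocols, polyadenylated RNA went into an unstranded NEBNext Ultra library preparation. Per the submitters' processing notes, HISAT2 2.0.5, HTSeq 0.6.1, DESeq2 1.20.0 and GRCh38 were used. The annotation and strand setting were not given in the sources used here. The deposited tables hold raw counts and FPKM values. The deposited FPKM equalled counts divided by library total and 1 length per gene, within 3.76e-06 percent where a count was at least 10, and for all 10 members that length was the exon union of GENCODE release 44, from which positions, GC content (longest transcript) and 3′ untranslated regions were taken.

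The comparison used edgeR 4.0.16 under R 4.3.3 with TMM factors, default expression filter, robust quasi-likelihood F test over all 6 libraries, Benjamini-Hochberg adjustment over 18581 genes. The code was tested on simulated counts with known changes. Standard errors were derived as the size of the log2 fold change over the root of F. This test gave every adjusted p-value for which no other tool is named. The series design calls the 3 libraries of a group biological replicates. How they were separated was not given in the sources used here. The p-values therefore measure only the spread among these libraries, which may be technical. Pairs within a group differed by more than sampling noise (chi-square per degree of freedom 1.99 to 6.77). Intervals cover this spread. Members and lists were chosen with earlier results of these data known. Of other pathway genes, the remaining family members, EGFR, BRAF, MAPK3, called genes with an absolute log2 fold change over 0.5 and the largest called rise and fall of each list were named, and 2 further genes that the rule fixed by name are not reported here.

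Alternatives were DESeq2 1.42.0, limma-voom (limma 3.58.1), median-ratio factors, library totals, 2 other count filters, the replicate block, 3 limma fits of log2 FPKM (pseudocount 1 or 0.1, mean of at least 1 FPKM or no filter), offsets for GC content and length (splines with 4 degrees of freedom each) and each library left out in turn.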

Additional observations from a re-analysis of the deposited data

How the results depend on the processing

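Across the 17 alternatives, the calls and directions of DUSP1, DUSP4, DUSP6, DUSP10, SPRY2 and SPRY4 held in every one, with log2 fold changes of 0.18 to 0.26, 0.39 to 0.53, 0.55 to 0.90, −0.33 to −0.19, −0.51 to −0.44 and 0.27 to 0.38. Members called higher numbered 4 or 5 and members called lower 2. DUSP5, tested in 15 of them, was called without ENZ replicate 1 only, and SPRED1 with GC and length offsets only. SPRED2, not called in any, had −0.01 on library totals and in the 3 FPKM fits and −0.02 with GC and length offsets. DUSP7 (−0.01), DUSP8 (−0.16) and SPRED3 (−0.10) also changed sign with these offsets. SPRED3 had −0.02 on library totals and −0.01 on unfiltered log2(FPKM + 1). With each library left out in turn, SPRED3 ranged from −0.09 to 0.11 and DUSP9 from −0.08 to 0.07. The cause was not tested.

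Pathway list genes called higher were 10 and called lower 3 on unfiltered log2(FPKM + 1), against 20 and 7. With the replicate block, which changed no member's call, DUSP6 had 0.80 and SPRY2 −0.47. Same-numbered libraries did not deviate together (correlations of 0.02, −0.01 and −0.05), so the numbers were not taken as pairs. Of the members and the pathway genes named, DUSP5, SPRY3, EGR3, EPHA4 and KSR1 had under 100 counts in each library, and such counts limit precision.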
